A study of Capra hircus with 2 samples.

Results

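ENSCHIG00000011680 and ENSCHIG00000010079 are a pair of goat genes that the deposited table names only by their Ensembl identifiers, and both were detected in most granulosa cells. They were chosen by identifier for that abundance, so their detection and level are given as a description. They are 2 of the 154 complete gene rows analysed, of which 117 carry a symbol and 37 only an identifier. ENSCHIG00000011680 stands in the table between ZBTB11 and CEP97, and ENSCHIG00000010079 is the first row, before ITSN1. The RefSeq gene table of assembly ARS1.2 paired a name with 0 of the 37 identifiers, so no name, protein or sequence is given for either gene, and none was inferred from the neighbours.

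The cells came from ovaries of Ji'ning grey goats, in 1 library labelled HGC from goats of high fertility (over 3 kids per birth) and 1 labelled LGC from goats of low fertility (under 2 kids per birth). The cells were separated by a brief digestion with a trypsin-like enzyme and sequenced from the 3′ end of transcripts with the droplet method of 10x Genomics, chemistry V2. The table held 7106 cells of the HGC and 3345 cells of the LGC library, 10451 together, where the study states about 12000. The number of goats behind each library is not stated in the labels. With 1 library per group no test between groups could be made, and a difference between the libraries cannot be told apart from one between single goats, dissections or library preparations.

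Granulosa cells are the somatic cells that surround the oocyte. They respond to follicle-stimulating hormone, make oestradiol, and supply the oocyte with metabolites. In droplet sequencing each captured transcript carries a unique molecular identifier (UMI), so a cell's UMIs of a gene count molecules, and the sum over all genes is the depth of that cell. Genes with many UMIs in nearly every cell can be followed cell by cell, whereas most genes give only a few scattered UMIs.

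The HGC library held 63769786 UMIs, with a median of 7214.5 per cell, and the LGC library 45674506 UMIs, with a median of 11080. With CPM for UMIs per 1000000 UMIs, a gene without a count could still have stood at up to 0.0470 CPM in the former and 0.0657 CPM in the latter, taken as 3 UMIs. None of the 7 granulosa markers looked for, such as FSHR and CYP19A1, is among the 154 genes, so the labelled cell type could not be checked. The markers of other cells that were among them were SAMSN1, CD96 and CD80 of leukocytes (3 of 7), CCDC80 and COL8A1 of theca and stroma (2 of 8) and UPK1B of the surface epithelium (1 of 3). No cell was classed, so a cell type that should lack either gene, and with it the background from free RNA, could not be set. The libraries shared 27 cell barcodes, 0.807% of those of the LGC library.

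ENSCHIG00000011680 was detected in 99.6% of the HGC cells (exact 95% interval 99.5% to 99.8%) and in 99.4% of the LGC cells (99.1% to 99.7%). The median cell held 25 UMIs of it in the HGC and 38 UMIs in the LGC library, and the highest cells held 376 and 686 UMIs. On the deposited scale, the natural log of 1 plus the UMIs per 10000, the values averaged 3.49 ± 0.48 (SD over 7106 cells) in the HGC and 3.49 ± 0.54 (SD over 3345 cells) in the LGC library. These values hardly differ, and the distributions lay over each other almost everywhere.

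The median cell gave 34.5 of every 10000 UMIs to ENSCHIG00000011680 in the HGC library, and 5% of the cells gave less than 13.5 and another 5% more than 57.2. For the LGC library the median was 35.5, with 5% of the cells below 12.1 and 5% above 58.5. The distribution had a single peak with a tail to the low side. Cells under 25% of the library's level made up 2.11% of the HGC and 3.29% of the LGC library.

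ENSCHIG00000010079 was detected in 91.9% (91.2% to 92.5%) of the HGC and 92.8% (91.9% to 93.6%) of the LGC cells. Its median was 4 UMIs per cell in the HGC and 5 UMIs in the LGC library, and its highest cells held 43 and 47 UMIs. The deposited values averaged 1.65 ± 0.65 (SD over cells) and 1.62 ± 0.61. With every cell cut to 2000 UMIs the gene was expected in 63.2% of the HGC and 61.2% of the LGC cells, with 209 and 132 shallower cells left out. For ENSCHIG00000011680 the reduced shares were 99.2% and 99.0%. Detection of ENSCHIG00000010079 in most cells therefore rests on their depth more than that of ENSCHIG00000011680 does.

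**Figure D1:**
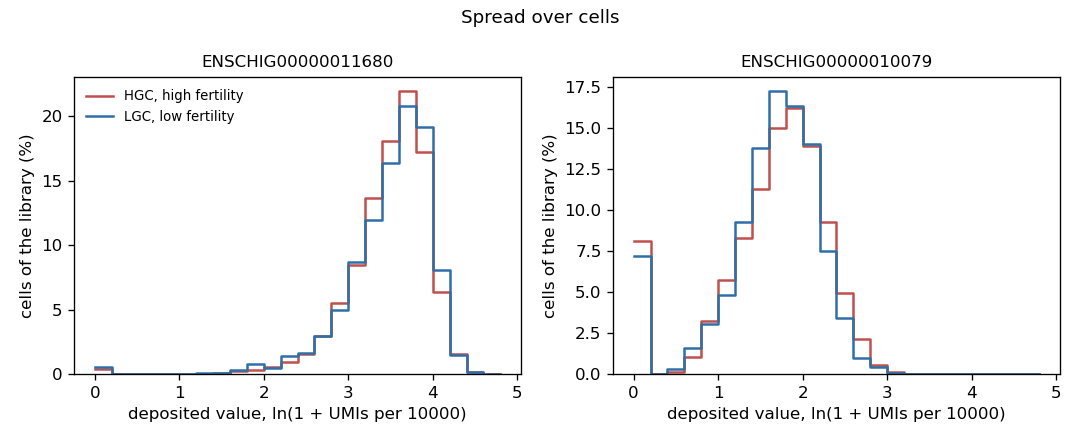
Share of cells (vertical axis, percent of the library) by deposited value (horizontal axis, natural log of 1 plus the UMIs per 10000, in steps of 0.2) for each gene, with a line per library. Cells without a UMI stand at 0, and apart from them each gene has a single peak that lies in nearly the same place in both libraries, with medians of 3.57 and 3.60 for ENSCHIG00000011680 and of 1.77 and 1.72 for ENSCHIG00000010079.

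Both genes varied little between cells once the scatter of counting was taken off, by a measure that weighs each cell by the square of its depth. The coefficient of variation (SD over mean of the level per UMI) was then 0.310 in either library for ENSCHIG00000011680, and 0.293 in the HGC and 0.342 in the LGC library for ENSCHIG00000010079. With the scatter of counting left in and every cell weighed alike, it was 0.390 and 0.405 for the former and 0.636 and 0.607 for the latter. The gap between the measures is therefore not counting scatter alone. In all, 9 of the 154 genes were detected in over 50% of the cells of both libraries, and of these 9 the pair had the lowest variation in each library. Detection in most cells was the ground for choosing the pair, and a gene missing from many cells varies more. This rank therefore follows in part from the choice and is given as a description. MRPL39, a protein of the large mitochondrial ribosomal subunit, had 0.353 and 0.470, and CCT8, a subunit of the cytosolic chaperonin, 0.420 and 0.415. SON, a splicing cofactor, stood at 0.467 and 0.497, and NFKBIZ, a nuclear modulator of NF-kB target genes, at 0.830 and 0.875.

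A further pair of genes without a symbol was also detected in over 50% of the cells of both libraries and is no part of the choice. ENSCHIG00000022046 was detected in 86.2% of the HGC and 91.8% of the LGC cells, with a variation of 0.412 and 0.410. ENSCHIG00000012599, whose cells fall into a low and a high mode, was detected in 73.9% and 90.2% of the cells, with a variation of 1.08 and 0.759. ENSCHIG00000022046 was chosen for mention after its values were seen.

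Summed over each library, ENSCHIG00000011680 stood at 3586 CPM (exact Poisson 95% interval 3571 to 3600) in the HGC and 3811 CPM (3793 to 3829) in the LGC library, a ratio high over low of 0.941 (0.935 to 0.947). ENSCHIG00000010079 stood at 516 CPM (510 to 521) against 473 CPM (467 to 480), a ratio of 1.09 (1.07 to 1.11). The pair took 0.410% of all UMIs of the HGC and 0.428% of the LGC library, which was 42.3% and 39.1% of the UMIs of the 154 genes. Intervals cover counting error only. Neither gene reached a 1.5-fold difference, while 7 of the 44 genes that reached 10 CPM in either library did (15.9%).

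Neither direction was kept under every scaling. Standardised over 8 bins of depth, the ratio of ENSCHIG00000011680 was 1.01 in place of 0.941, and as a mean over cells it was 0.985. The ratio of ENSCHIG00000010079 became 0.973 when divided by the middle ratio, 1.12 (0.16 on the log2 scale), of the 18 genes that reached 50 CPM in each library. The libraries differ in depth, and no order of the libraries can be read for either gene.

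The level per UMI changed with depth, and differently for each gene. ENSCHIG00000011680 was lowest in cells below 2500 UMIs, at 2704 CPM (2586 to 2825) in the HGC and 2361 CPM (2225 to 2504) in the LGC library. Between 5000 and 30000 UMIs its level lay between 3493 and 3643 CPM in the HGC and between 3379 and 3815 CPM in the LGC library. Cells above 30000 UMIs had the highest level, 4030 CPM (3981 to 4081) over 149 cells and 4399 CPM (4359 to 4438) over 225 cells. From the shallowest to the deepest bin this is a ratio of 1.49 (1.42 to 1.56) in the HGC and 1.86 (1.76 to 1.98) in the LGC library.

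ENSCHIG00000010079 was instead low at both ends of the depth range. It stood at 397 CPM (353 to 445) below 2500 UMIs and at 424 CPM (408 to 440) above 30000 UMIs in the HGC library. In between, the level lay from 516 to 535 CPM, and the intervals of neighbouring bins overlapped. The LGC library had 379 CPM (325 to 438) and 375 CPM (364 to 387) at the ends and 494 to 514 CPM in between. Between the ends themselves the levels could not be told apart, with a ratio deepest over shallowest of 1.07 (0.946 to 1.21) and 0.990 (0.853 to 1.16).

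In the deepest cells the genes therefore parted. For each UMI of ENSCHIG00000010079 the cells below 30000 UMIs held between 6.17 and 7.06 UMIs of ENSCHIG00000011680 in the HGC and between 6.01 and 7.51 in the LGC library, whichever bin was taken. Cells above 30000 UMIs held 9.51 (9.14 to 9.90) and 11.7 (11.4 to 12.1). Gene lengths were not used, so only the change of this ratio over depth is read and not its size. No doublet caller was run, and what part droplets with more than a single cell have in the deepest bin was not tested.

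**Figure D2:**
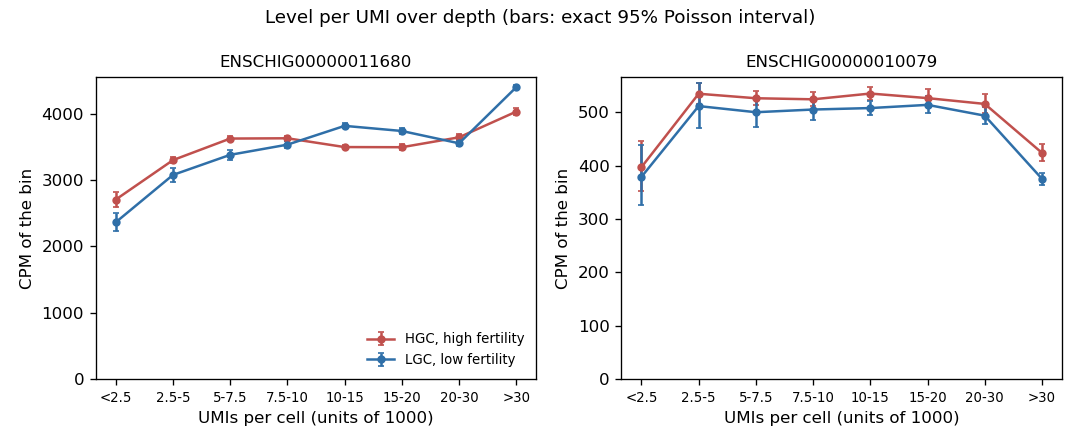
Level of each gene (vertical axis, CPM of the summed UMIs, from 0) by depth of the cells (horizontal axis, UMIs per cell in units of 1000, in 8 bins), with a line per library and bars for the exact 95% Poisson interval. ENSCHIG00000011680 is lowest in the shallowest and highest in the deepest cells, at 4030 and 4399 CPM, whereas ENSCHIG00000010079 drops at both ends.

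The spread between cells was widest in the shallowest bin. Below 2500 UMIs the variation beyond counting was 0.435 and 0.546 for ENSCHIG00000011680 and 0.447 and 0.770 for ENSCHIG00000010079, in the HGC and LGC libraries. Above 30000 UMIs it was 0.259 and 0.213 for the former and 0.308 and 0.347 for the latter. ENSCHIG00000011680 thus varied least among the deepest cells.

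Only 26 cells of the HGC and 19 cells of the LGC library had no UMI of ENSCHIG00000011680. If every cell of a library had the same level per UMI, depth alone would leave 1.27 and 0.419 such cells. Their median depth was 1849.5 and 2249 UMIs, and the deepest held 4219 and 3917 UMIs. ENSCHIG00000012599 stood at 12166 CPM (11233 to 13156) in these cells of the HGC and 34392 CPM (32644 to 36209) in those of the LGC library, 2.22 and 4.52 times the level of other cells of matched depth. In the HGC library a few cells carried this level: 18 of the 26 cells had a UMI of it, with a median of 0.135% and a maximum of 6.57% of a cell's UMIs. In the LGC library 19 of 19 cells had one, with a median of 3.26%. SON was 2.08 and 2.11 times as high in them, on 33 and 26 UMIs. This was not particular to SON. NFKBIZ was 1.71 and 3.20 times as high, on 20 and 17 UMIs, and SAMSN1 and IFNGR2 were higher too, on at most 7 UMIs. ENSCHIG00000010079 was lower, at 0.650 and 0.203 times, on 15 and 4 UMIs. CCT8, PROS1 and ENSCHIG00000022046 differed in direction between the libraries. Of these cells, 15 in each library also had no UMI of ENSCHIG00000010079. That gene was missing from 577 and 241 cells in all, where a constant level would leave 451 and 192.

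The genes did not rise and fall together over cells. For each cell the UMIs beyond those expected from its depth were divided by the square root of the expected number, and the Pearson correlation of these residuals was taken over cells. It was -0.13 over the 7106 cells of the HGC and -0.22 over the 3345 cells of the LGC library. With the counting variance taken off, the correlation was -0.42 and -0.58. That form also weighs each cell by the square of its depth, so the deepest cells weigh most. It thus differs from the residual r in more than the counting variance. Cells of a library share its preparation, and both genes share the cell's total, so these correlations are descriptions and carry no p.

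The sign depended on the scale and on the cells. On the deposited log values Pearson's r was 0.05 in the HGC and 0.14 in the LGC library, and Spearman's rho was -0.05 in both. Without the cells above 15000 UMIs the residual r shrank to -0.08 and -0.07. It was -0.13 and -0.22 without the barcodes that the libraries share, and -0.12 and -0.17 without cells that had a UMI of SAMSN1 or CCDC80.

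Within bins of depth the correlation moved from positive to negative. Below 2500 UMIs r was 0.12 over 386 cells of the HGC and 0.19 over 246 cells of the LGC library. Cells of 10000 to 15000 UMIs gave -0.17 in both libraries, and cells above 30000 UMIs -0.44 and -0.45. With the counting variance taken off the values were 0.43 and 0.45 in the shallowest bin and -0.55 in the deepest bin of both libraries. The trend over depth was thus larger in that form, which also weighs deeper cells more within a bin. From 2500 to 5000 UMIs the libraries differed in sign, with -0.02 and 0.16.

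The shallowest bin also held many cells in which ENSCHIG00000012599 took over 1% of the UMIs, 20.2% of the cells in the HGC and 31.3% in the LGC library, against 0.671% and 3.56% above 30000 UMIs. Without these cells r below 2500 UMIs was 0.05 and 0.16. Among the remaining cells above 30000 UMIs it was -0.45 and -0.48. In the HGC library most of the small positive value below 2500 UMIs thus went with those cells, while in the LGC library it did not.

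**Figure D3:**
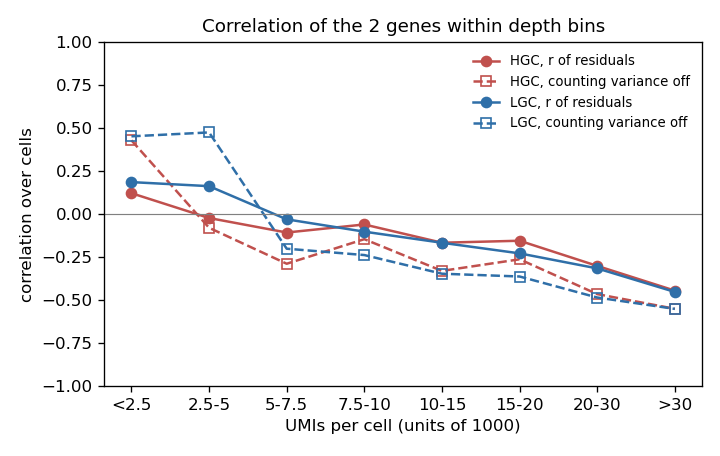
Correlation over cells between ENSCHIG00000011680 and ENSCHIG00000010079 (vertical axis, from -1 to 1) within 8 bins of depth (horizontal axis, UMIs per cell in units of 1000). Filled points and full lines are Pearson's r of the residuals. Open points and dashed lines are a correlation with the counting variance taken off and cells weighed by squared depth. Both run from above 0 in the shallowest to -0.44 and -0.45, or -0.55, in the deepest cells.

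To show what went with each gene, cells were ranked by its share of their UMIs within each depth bin, and the 25% of cells with the highest share were set against the 25% with the lowest. Ranked this way, the 1773 low cells of the HGC library held 2014 CPM of ENSCHIG00000011680 and the 1780 high cells 5220 CPM, a contrast made by the ranking itself. The median depths were alike, at 7181 and 7246.5 UMIs. In the LGC library 833 cells stood against 840, with median depths of 11031 and 11130.5 UMIs. The ratios below are for 30 genes with a symbol and a UMI in at least 10% of the cells of both libraries. The cells were ranked on a measured gene of the same library, so the ratios describe these cells and hold no replicate error.

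Most of the 30 genes were lower where ENSCHIG00000011680 was high. The median ratio of the highest over the lowest cells was 0.876 in the HGC and 0.807 in the LGC library. Of the 30, 10 (33.3%) and 9 (30.0%) were at least 1.5-fold lower in the highest cells, and 0 (0.0%) and 1 (3.33%) at least 1.5-fold higher. The counting interval lay below 1 for 15 (50%) and 17 (56.7%) genes, and above 1 for 8 (26.7%) and 5 (16.7%).

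IFNGR2, the signal-transducing chain of the receptor for interferon gamma, was the gene least like ENSCHIG00000011680 by r, with -0.28 in the HGC and -0.33 in the LGC library. Its level was 87.5 CPM in the lowest and 19.2 CPM in the highest cells of the HGC library, a ratio of 0.219 (0.193 to 0.248). In the LGC library it was 102 against 24.3 CPM, a ratio of 0.237 (0.208 to 0.271). A UMI of IFNGR2 was found in 43.9% of the lowest and 14.0% of the highest cells of the former, and in 56.3% and 24.3% of the latter. Without the cells that had a UMI of SAMSN1 or CCDC80, the ratios were 0.255 and 0.281. The r keeps the scatter of counting, which brings it nearer 0 for genes with few UMIs. By the ratio, CCDC80 (0.114 and 0.253) stood below IFNGR2 in the HGC library. CCDC80 and CD200 (0.316 and 0.407) also stood below BTG3 and COX17, the next genes named by r, in both libraries.

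BTG3, an anti-proliferative gene, stood at 102 against 48.4 CPM in the HGC library (ratio 0.476, 0.437 to 0.519) and at 76.4 against 44.4 CPM in the LGC (0.581, 0.520 to 0.649). COX17, which carries copper to cytochrome c oxidase, had ratios of 0.609 (0.553 to 0.671) and 0.569 (0.520 to 0.622). The other gene of the pair, ENSCHIG00000010079, stood at 567 against 475 CPM and at 542 against 420 CPM, with ratios of 0.838 (0.813 to 0.864) and 0.775 (0.746 to 0.805).

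The markers of other cells were also lower where ENSCHIG00000011680 was high. The 3 leukocyte markers summed to 38.8 CPM in the lowest and 3.49 CPM in the highest cells of the HGC library, and to 42.6 and 2.11 CPM in the LGC. CD96 went against the sum in the LGC library, with 0 UMIs in the lowest and 8 UMIs in the highest cells. SAMSN1, a signalling adaptor of leukocytes, made up most of the sum, at 37.4 against 3.31 CPM and 42.0 against 1.35 CPM. The 2 stroma markers summed to 92.1 against 9.36 CPM and to 31.5 against 6.76 CPM, mostly from CCDC80, a secreted matrix-associated protein, at 71.3 against 8.11 CPM and 22.7 against 5.74 CPM. UPK1B lay under 1 CPM in each of these groups and at 0 in the highest cells of the HGC library. The part of other cell types in the ratios was not tested, beyond the values given without cells that had SAMSN1 or CCDC80.

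The genes most like ENSCHIG00000011680 among the 30 had a weak correlation, below 0.1 in both libraries. CFAP298, a gene of cilium assembly, came first with r of 0.07 and 0.09. It stood at 57.7 against 80.3 CPM in the lowest and highest cells of the HGC library (ratio 1.39, 1.28 to 1.52) and at 46.4 against 67.2 CPM in the LGC (1.45, 1.30 to 1.62). Without the cells that had SAMSN1 or CCDC80 these ratios fell to 1.14 (1.04 to 1.25) and 1.09 (0.969 to 1.23).

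USP16, a deubiquitinase of histone H2A, followed with ratios of 1.25 and 1.29, then PROS1, which encodes protein S, with 1.08 and 1.43. Without the cells that had SAMSN1 or CCDC80, USP16 had ratios of 1.06 (0.972 to 1.17) and 1.12 (0.996 to 1.26), so both intervals held 1. PROS1 then had 1.05 (0.960 to 1.14) and 1.17 (1.04 to 1.32). CMSS1, a nucleolar gene, had ratios of 1.12 and 1.26, which turned to 0.824 and 0.890 without the cells that had SAMSN1 or CCDC80. DZIP3, a ubiquitin ligase, had ratios of 1.44 and 1.54 at levels of at most 17.0 CPM, and without those cells 1.36 (1.09 to 1.69) and 1.26 (0.957 to 1.67). By r, none of the 30 genes ran closely with ENSCHIG00000011680. This r keeps the scatter of counting, which lowers it for genes with few UMIs, so it cannot tell how closely they ran beneath that scatter. By the ratio, DZIP3 was the highest of the 30 in both libraries.

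ENSCHIG00000010079 showed the opposite leaning. Ranked by it, 1677 low cells stood against 1780 high cells in the HGC and 772 against 840 in the LGC library. The low cells were slightly deeper here, with medians of 7465 against 7207.5 UMIs and 11607.5 against 11083.5 UMIs. The median ratio of the 30 genes was 1.21 in the HGC and 1.23 in the LGC library. At least 1.5-fold higher in the highest cells were 3 (10.0%) and 6 (20.0%) of them, and at least 1.5-fold lower 0 (0.0%) and 1 (3.33%). The interval lay above 1 for 21 (70.0%) and 17 (56.7%) genes, and below 1 for 1 (3.33%) and 3 (10.0%).

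CCT8 was the gene most like ENSCHIG00000010079 by r, with 0.14 in the HGC and 0.18 in the LGC library. This r keeps the scatter of counting, which lowers it most for genes with few UMIs, and by the ratio other genes stood above CCT8. It stood at 160 CPM in the lowest and 227 CPM in the highest cells of the former, a ratio of 1.42 (1.35 to 1.50), and at 151 against 222 CPM in the latter, 1.47 (1.38 to 1.56). COX17 came next with r of 0.09 and 0.19. Its level was 45.5 against 68.5 CPM in the HGC (1.51, 1.37 to 1.66) and 69.5 against 126 CPM in the LGC library (1.82, 1.67 to 1.99). COX17 thus leaned towards ENSCHIG00000010079 and away from ENSCHIG00000011680 in both libraries. This was not particular to COX17. Others of the 30, such as BTG3 and MRPL39, did so too. The median ratio of the 30 genes leaned the same way, at 0.876 and 0.807 for ENSCHIG00000011680 beside 1.21 and 1.23 for ENSCHIG00000010079. CD200, a membrane glycoprotein that was chosen for mention after its values were seen, had higher ratios than CCT8, 1.76 (1.48 to 2.09) and 1.79 (1.42 to 2.27), at r of 0.05 in both libraries and levels of at most 23.1 CPM. Between cells ranked by ENSCHIG00000011680 the ratios of CD200 were 0.316 and 0.407, below those of COX17.

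MRPL39 had ratios of 1.35 (1.27 to 1.44) and 1.45 (1.34 to 1.57), and TRMT10C, a subunit of mitochondrial RNase P, of 1.39 (1.25 to 1.56) and 1.69 (1.48 to 1.93). CLDND1, a membrane protein of the claudin type, stood at 52.5 against 77.1 CPM and 41.0 against 67.3 CPM, with ratios of 1.47 and 1.64. Without the cells that had SAMSN1 or CCDC80, the ratios of CCT8 were 1.38 and 1.48, those of COX17 1.63 and 2.02, and those of MRPL39 1.34 and 1.35. Without cells above 15000 UMIs the ratio of MRPL39 in the LGC library fell to 1.08 (0.958 to 1.22), an interval that holds 1, while in the HGC library it was 1.32. TRMT10C in that setting had 1.31 (1.15 to 1.50) in the HGC and 1.37 (1.13 to 1.68) in the LGC library. The leukocyte markers summed to 14.1 against 16.2 CPM and 14.6 against 19.4 CPM in the lowest and highest cells of ENSCHIG00000010079, and the stroma markers to 37.0 against 67.1 CPM and 13.2 against 18.8 CPM. In the LGC library only SAMSN1 was higher among the leukocyte markers, with 162 against 209 UMIs, where CD96 had 4 against 1 and CD80 5 against 2. Without cells above 15000 UMIs SAMSN1 turned there to a ratio of 0.693 (0.509 to 0.940), and CCDC80 had 0.836 (0.572 to 1.22). The part of those cell types in its ratios was not tested, beyond the values given without cells that had SAMSN1 or CCDC80.

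NFKBIZ was the gene least like ENSCHIG00000010079, with r of -0.06 and -0.12. It stood at 164 against 139 CPM in the HGC (ratio 0.851, 0.803 to 0.901) and 137 against 90.5 CPM in the LGC library (0.662, 0.611 to 0.717). CBLB, a ubiquitin ligase that limits receptor signalling, had ratios of 0.966 (0.860 to 1.09) and 0.767 (0.661 to 0.889). Without cells above 15000 UMIs its ratio in the LGC library was 0.837 (0.666 to 1.05), an interval that holds 1. GBE1, the glycogen branching enzyme, had ratios of 0.969 (0.861 to 1.09) and 0.955 (0.824 to 1.11), and without cells above 15000 UMIs 0.955 (0.832 to 1.09) and 0.788 (0.628 to 0.988).

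**Figure D4:**
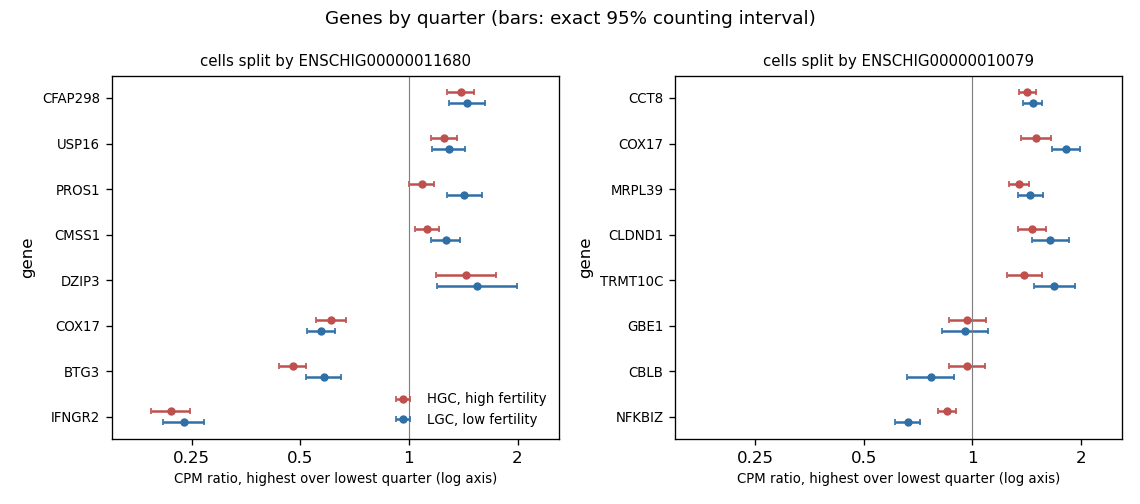
CPM in the 25% of cells with the highest share of a gene over that in the 25% with the lowest (horizontal axis, log scale) for the 5 most and 3 least alike genes with a symbol, ranked within depth bins, with a point per library and bars for the exact 95% counting interval. On the left, for ENSCHIG00000011680, IFNGR2 lies at 0.219 and 0.237, and on the right, for ENSCHIG00000010079, COX17 lies at 1.51 and 1.82. The lowest cells of ENSCHIG00000010079 include none below 2500 UMIs, where tied cells without a UMI of it ranked above the lowest 25%.

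Taken by gene list, the mitochondrial list had 4 genes among the 30 (COX17, MRPL39, TOMM70 and TRMT10C), of 5 in the table and 15 in the list. Their median ratio was 1.37 and 1.57 between cells ranked by ENSCHIG00000010079, beside 1.21 and 1.23 over all 30 genes. The interval lay above 1 for 4 of 4 in each library, where 70.0% and 56.7% of the 30 did, and MRPL39 no longer did so in the LGC library without cells above 15000 UMIs. Between cells ranked by ENSCHIG00000011680 it was 0.822 and 0.691, beside 0.876 and 0.807, with an interval below 1 for 3 of 4 in each library, where 50% and 56.7% of the 30 had one.

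The list headed protein synthesis and folding had 5 genes among the 30 (CCT8, CMSS1, NIT2, SON and USP16), of 9 in the table. It includes SON, a splicing cofactor, and USP16, a histone deubiquitinase, so its median is not that of a single function. That median was 1.30 and 1.39 for ENSCHIG00000010079 and 1.07 and 1.05 for ENSCHIG00000011680. Growth control and copper had 6 of 7 genes (BBX, BTG3, COX17, GSK3B, PROS1 and SOD1), with medians of 1.27 and 1.28 for the former and 0.819 and 0.716 for the latter. COX17 is in the mitochondrial list too. Over all 30 genes the medians were 1.21 and 1.23 for ENSCHIG00000010079 and 0.876 and 0.807 for ENSCHIG00000011680. For ENSCHIG00000010079, growth control and copper thus lay near the general lean of the 30 genes. The immune list had 3 of 9 genes (CD200, IFNGR2 and NFKBIZ), with medians of 0.916 and 1.10 for ENSCHIG00000010079 and 0.316 and 0.407 for ENSCHIG00000011680. Each such median is the value of a single gene, and the 3 genes differed. For ENSCHIG00000010079 CD200 had 1.76 and 1.79, where NFKBIZ had 0.851 and 0.662. For ENSCHIG00000011680 NFKBIZ had 0.649 and 1.03 (0.954 to 1.11). Matrix and stroma had CCDC80 alone, at 1.80 (1.61 to 2.02) and 1.15 (0.894 to 1.48) for ENSCHIG00000010079 and at 0.114 and 0.253 for ENSCHIG00000011680. Without cells above 15000 UMIs its ratio for ENSCHIG00000010079 fell to 1.39 (1.20 to 1.62) in the HGC library and 0.836 (0.572 to 1.22) in the LGC.

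Among genes without a symbol, ENSCHIG00000022046 leaned the same way as COX17. It was lower where ENSCHIG00000011680 was high, at 481 against 310 CPM and 551 against 342 CPM (ratios 0.644 and 0.622). Between cells ranked by ENSCHIG00000010079 it was higher, at 339 against 487 CPM and 381 against 560 CPM (ratios 1.44 and 1.47). Its r with ENSCHIG00000010079, 0.19 and 0.27, was above that of each of the 30 genes with a symbol in the same library. ENSCHIG00000022046 also had more UMIs than each of the 30, at 400 and 453 CPM, and this r is lowered most for genes with few UMIs. By the ratio, COX17 (1.51 and 1.82) and CD200 (1.76 and 1.79) stood above it.

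ENSCHIG00000012599 had r of -0.29 and -0.25 with ENSCHIG00000011680, and of 0.02 and -0.04 with ENSCHIG00000010079. It stood at 4833 against 2050 CPM in the lowest and highest cells of ENSCHIG00000011680 in the HGC library and at 5836 against 3153 CPM in the LGC. Cells in its high mode, with a deposited value of at least 2.5, held 0.884 times (0.879 to 0.889) the ENSCHIG00000011680 of the other cells at matched depth in the HGC and 1.04 times (1.03 to 1.05) in the LGC library. For ENSCHIG00000010079 these ratios were 1.06 (1.05 to 1.08) and 0.965 (0.950 to 0.981), so the direction across the modes differed between the libraries for both genes.

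Cells with a UMI of SAMSN1, 583 in the HGC and 366 in the LGC library, differed less from the rest in ENSCHIG00000010079 than in ENSCHIG00000011680. The former was 0.997 times (0.960 to 1.04) and 1.14 times (1.10 to 1.18) that of other cells of matched depth, where the latter was 0.655 (0.644 to 0.667) and 0.623 (0.612 to 0.634) times as high. In cells with a UMI of CCDC80, 832 and 359, ENSCHIG00000011680 stood at 0.785 (0.777 to 0.794) and 0.890 (0.880 to 0.901) of the other cells. ENSCHIG00000010079 stood at 1.14 (1.11 to 1.17) and 0.956 (0.923 to 0.990).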

How the data were processed

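Granulosa cells of 2 goat libraries were measured by droplet single-cell RNA sequencing. Cell Ranger 2.2.0 was used, per the submitters' processing notes. No source used here names the genome build, annotation, cell filter or normalizing program. The authors deposited natural log values, which equal the natural log of 1 plus 10000 times a gene's UMIs over the cell's total. UMIs and totals were worked back from the deposited values, and all 177610 values above 0 came out whole within 0.0001 of a UMI. The table ends within the row of another gene, which was left out. All 10451 deposited cells were kept, doublets were not called and no cell was classed. Columns were assigned to libraries by their prefix, as the labels describe.

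Levels were summed UMIs over summed totals, with exact 95% Poisson or binomial intervals. The depth bins had bounds at 2500, 5000, 7500, 10000, 15000, 20000 and 30000 UMIs. Ratios between cells ranked by a gene, the marker and mode comparisons and the settings marked as added below were chosen after the data were seen. Members, gene lists and tests were all chosen with earlier results of these data known. Named genes are the 5 most and 3 least alike, by mean r of residuals over both libraries, among the 30 genes with a symbol and a UMI in at least 10% of the cells of each library. The calculations were tested on simulated data. Python 3.11.15, NumPy 2.4.6, SciPy 1.17.1, pandas 2.3.3 and Matplotlib 3.10.9 were used.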

Additional observations from a re-analysis of the deposited data

How the results depend on the processing

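Of 50 recomputed values of the pair's ratios, shares, variation, depth change and correlation, 26 stayed within the counting interval, or within 0.05 for variation and correlation, 20 moved and 4 reversed. The ratio high over low of ENSCHIG00000011680, 0.941, was 0.985 as a mean over cells, 0.976 without cells above 15000 UMIs, 1.01 standardised over depth bins and 0.840 divided by the median ratio. That of ENSCHIG00000010079, 1.09, was 1.06, 1.05, 1.05 and 0.973 in the same settings. Thinned to 2000 UMIs, shares of cells were 99.2% and 99.0% for ENSCHIG00000011680 and 63.2% and 61.2% for ENSCHIG00000010079, as fewer UMIs per cell must give. The variation of ENSCHIG00000010079 in the LGC library, 0.342, was 0.255 without cells above 15000 UMIs. The ratio deepest over shallowest of ENSCHIG00000011680 was 1.57 and 2.15 as medians over cells; for ENSCHIG00000010079 the shallow median was 0 UMIs, so no ratio was given. The correlation of the pair, -0.131 and -0.219, was 0.0508 and 0.145 as Pearson's r of the deposited values, -0.0542 and -0.0515 as Spearman's rho, -0.0809 and -0.0661 without cells above 15000 UMIs, -0.421 and -0.579 with the counting variance taken off and, in the LGC library, -0.125 as a mean within bins. The cause of these changes was not tested. The correlation with the counting variance taken off also weighs cells by squared depth. Taking the counting variance off, medians over cells, and leaving out cells high in ENSCHIG00000012599 or with shared barcodes were chosen after the data were seen.

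Of 148 recomputed ratios between ranked cells, for 52 pairings of genes and libraries in 3 added settings, 99 stayed within the counting interval, 45 moved and 4 reversed. Without cells that had SAMSN1 or CCDC80, CMSS1 between cells ranked by ENSCHIG00000011680 turned to 0.824 and 0.890, and ENSCHIG00000012599 between cells ranked by ENSCHIG00000010079 in the LGC library from 0.970 to 1.03. SAMSN1 between cells ranked by ENSCHIG00000010079 in the LGC library turned from 1.38 to 0.693 without cells above 15000 UMIs. No paired analysis was possible because HGC and LGC are a single library each.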
